A study of Mus musculus with 35 samples.

Results

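The genes described here encode nuclear-encoded subunits of the mitochondrial respiratory chain and ATP synthase, with the assembly factors that share their symbols, in healing mouse skin. A gene was a member if its symbol started with Nduf, with Sdh followed by a to d, with Uqcr, with Cox4 to Cox8 or with Atp5. Of 22830 gene symbols, 92 met this rule in both deposited count tables. A mean of at least 1 CPM (counts scaled to the total of the library) was reached by 87 of them in the table of fibroblast and time-course libraries, by 89 in the table of cilengitide libraries and by 86 in both. By role, the 92 genes comprised 36 of complex I, 4 of complex II, 8 of complex III, 20 of complex IV, 15 of complex V, 8 assembly factors and 1 gene, Cox4nb, that carries the prefix without being a subunit. Ndufa4 and its paralog Ndufa4l2 were placed with complex IV, where Ndufa4 protein is found, and Atp5s and Atp5sl were placed with the assembly factors. All genes starting with Cox except Cox4nb, Cox7a2l among them, were counted with complex IV by symbol. Below 1 CPM in the first table were Atp5g2 (0.40 CPM), Atp5l (0.48), Cox7c (0.83), Cox7b2 (0) and Cox8c. In the cilengitide table Cox6b2 (0.90 CPM), Cox7b2 and Cox8c were below it. The mitochondrially encoded subunits are outside the rule and were not used here. Nuclear-encoded Cyc1 of complex III is also outside the rule and is described with other mitochondrial genes below.

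Complex I (NADH dehydrogenase) and complex II (succinate dehydrogenase, which is also an enzyme of the citric acid cycle) pass electrons to ubiquinone, complex III passes them on to cytochrome c, and complex IV (cytochrome c oxidase) hands them to oxygen. Complexes I, III and IV pump protons across the inner mitochondrial membrane, and complex V (ATP synthase) makes ATP from the gradient. Several subunits of complex IV exist as tissue isoforms, of which Cox6a2, Cox7a1 and Cox8b are known from heart and skeletal muscle, Cox4i2 from hypoxic tissue and lung, and Ndufa4l2 is known as a hypoxia-induced paralog of Ndufa4. A healing wound holds keratinocytes, immune cells, fibroblasts and vessels, and striated muscle lies under the dermis.

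RNA was measured in 35 libraries of dorsal skin wounds from C57BL/6 mice of both sexes, 8 to 12 weeks old, after full-thickness excision. Col5a1CKO mice carried Col5a1 fl/fl alleles and the tamoxifen-inducible Col1a2CreERT driver, which deletes Col5a1, a chain of collagen V, in Col1a2-expressing fibroblasts and leaves it intact in other cells of the wound. WT mice were Cre-negative Col5a1 fl/fl littermates, and both genotypes received tamoxifen. The first table held, for day 14, 7 WT wounds, 7 Col5a1CKO wounds and 3 Col5a1CKO wounds injected with WT fibroblasts on day 3, and for day 19, 3 wounds of each genotype. Wounds without fibroblasts served as controls, for which the methods of the study name PBS alone, while their labels say only that they were wounded. The treatment label of the Col5a1CKO wounds of day 19 names WT fibroblasts and their titles do not, and the titles were followed here. The cilengitide table held 4 WT and 4 Col5a1CKO wounds given vehicle, and 4 Col5a1CKO wounds given cilengitide, an inhibitor of the alpha v beta 3 integrin, at 20 mg/kg daily. The cilengitide-treated samples carry no label for the day, and the design text of the series places the experiment at day 14.

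Library totals ranged from 15043531 to 35700325 counts in the first table and from 51211600 to 68266760 counts in the cilengitide table. Col5a1 was lower in Col5a1CKO wounds by 1.43 at day 14 (log2 fold change, standard error 0.49, edgeR quasi-likelihood test, adjusted p = 0.0757). By the same test it was lower by 1.69 at day 19 (adjusted p = 0.272) and by 1.17 with vehicle (adjusted p = 0.232). After Benjamini-Hochberg adjustment over all genes tested, its transcript level thus passed in none of these comparisons of whole wounds. These values describe mixed tissue, and the deletion in fibroblasts was not tested. The paper reports a significant decrease of this transcript in knockout skin, by PCR and by RNA sequencing, using Mann-Whitney tests. By Xist and Ddx3y, at least 1 sex-linked transcript was high in every library but 1 Col5a1CKO vehicle library. Xist was above 50 CPM in 2 of 4 WT vehicle, 0 of 4 Col5a1CKO vehicle and 2 of 4 cilengitide libraries, and in 3 of 3 Col5a1CKO against 2 of 3 WT libraries at day 19. At day 14 it was above 50 CPM in 2 of 7 WT, 3 of 7 Col5a1CKO and 3 of 3 fibroblast-treated libraries. Sex thus differed between some groups, and its part in the results was not tested. Keratinocyte markers, which define the epidermis, were present in all 35 libraries, but their summed level fell to 31.7 CPM in 1 Col5a1CKO library at day 14 and to 60.0 CPM in 1 Col5a1CKO vehicle library, against at least 30520 CPM in the WT libraries of day 14 and of the vehicle group.

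Promoter windows are shown for 5 genes on which the comparisons below turn. Ndufa4, Cox6b1, Atp5o and Ndufs8 had lower counts in Col5a1CKO wounds in both experiments, and Uqcrc1 had the largest log2 fold change with cilengitide among the genes that passed the test. Each window runs from 250 bases before to 50 bases after the start of the gene, 5′ to 3′ on the gene's strand (RefSeq, GRCm38.p6, which is not the build of the counts and serves here for sequence only). Capitals mark a match to the motif of nuclear respiratory factor 1 (NRF-1, searched as GCGCATGC) or to the core of the ETS family motif bound by GABP (searched as CCGGAAG), each on both strands.
Ndufa4, chr6:11907401-11907700, minus strand: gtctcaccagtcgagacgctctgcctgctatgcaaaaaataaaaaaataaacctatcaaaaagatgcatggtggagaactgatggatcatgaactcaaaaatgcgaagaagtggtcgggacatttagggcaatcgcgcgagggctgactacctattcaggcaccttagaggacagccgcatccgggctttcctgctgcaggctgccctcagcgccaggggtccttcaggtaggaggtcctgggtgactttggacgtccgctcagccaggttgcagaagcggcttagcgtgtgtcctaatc
Cox6b1, chr7:30626065-30626364, minus strand: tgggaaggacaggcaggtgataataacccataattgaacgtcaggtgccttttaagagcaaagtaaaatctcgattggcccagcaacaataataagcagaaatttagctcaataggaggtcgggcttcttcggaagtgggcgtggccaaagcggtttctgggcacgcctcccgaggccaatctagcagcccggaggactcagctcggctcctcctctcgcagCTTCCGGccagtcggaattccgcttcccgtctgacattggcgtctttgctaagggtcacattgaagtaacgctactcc
Atp5o, chr16:91931581-91931880, minus strand: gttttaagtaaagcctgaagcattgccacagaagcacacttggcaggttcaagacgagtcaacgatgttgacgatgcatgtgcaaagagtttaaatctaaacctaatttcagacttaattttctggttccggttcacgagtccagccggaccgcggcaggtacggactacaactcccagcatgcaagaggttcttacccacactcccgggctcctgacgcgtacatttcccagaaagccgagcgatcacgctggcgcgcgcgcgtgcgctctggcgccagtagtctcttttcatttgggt
Ndufs8, chr19:3912725-3913024, minus strand: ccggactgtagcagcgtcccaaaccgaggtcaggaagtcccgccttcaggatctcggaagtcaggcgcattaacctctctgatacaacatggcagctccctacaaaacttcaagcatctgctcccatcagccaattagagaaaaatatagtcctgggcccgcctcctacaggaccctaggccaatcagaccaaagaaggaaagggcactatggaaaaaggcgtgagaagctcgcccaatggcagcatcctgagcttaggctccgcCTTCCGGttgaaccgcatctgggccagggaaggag
Uqcrc1, chr9:108936398-108936697, plus strand: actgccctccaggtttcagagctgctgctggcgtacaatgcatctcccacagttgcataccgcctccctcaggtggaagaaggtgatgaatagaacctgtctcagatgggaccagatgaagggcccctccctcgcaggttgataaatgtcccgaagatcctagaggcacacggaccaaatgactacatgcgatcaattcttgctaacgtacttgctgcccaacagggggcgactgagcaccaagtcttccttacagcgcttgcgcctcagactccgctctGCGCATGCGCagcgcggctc

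Of the 92 genes, 76 were matched to such a window. A gene was counted for a motif if any of its windows held the letters. The ETS letters were found for 19 of these genes (25%) against 9.93% of all 27025 genes with a window. The NRF-1 letters were found for 11 (14.5%) against 3.05%. The letters of the YY1 motif, searched as AAGATGGC, were found for 11 genes (14.5%) against 3.19%. Those of a GC box, searched as GGGCGG, were found for 35 (46.1%) against 38.2%. The median GC content of the windows was 58.5% for these genes and 52.67% for all genes. In the 5 windows shown, Cox6b1 held the ETS letters 28 bases before the start and Ndufs8 held them 15 bases after it, Uqcrc1 held 2 overlapping NRF-1 matches, and the windows of Ndufa4 and Atp5o held neither. A match describes the letters and is not evidence of a bound site.

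Many genes of the respiratory chain have processed pseudogenes, so a 50-base read can match several places in the genome. In NCBIM37 (mm9), 47 of the 92 genes had no 50-base window of their transcript repeated elsewhere, 29 had up to 20% of windows repeated, 10 had above 20% and up to 50%, and 6 had above 50%. The 4 coding windows below, from GENCODE M1 transcripts, show the extremes. The Atp5l window (subunit g of ATP synthase, chr9:44721333-44728825) occurs 9 times elsewhere, on 7 chromosomes. The Atp5g2 window (subunit c, chr15:102493299-102501478) occurs 4 times elsewhere, the Cox7c window (chr13:86184421-86186509) 3 times, and the Cox4i1 window (chr8:123192190-123198109) in no other place.
Atp5l: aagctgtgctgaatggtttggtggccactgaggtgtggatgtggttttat
Atp5g2: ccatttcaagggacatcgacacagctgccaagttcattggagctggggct
Cox7c: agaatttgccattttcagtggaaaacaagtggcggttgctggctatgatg
Cox4i1: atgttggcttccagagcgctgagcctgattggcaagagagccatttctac

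Levels in the tables differed with the share of repeated windows. Reads of the first table had to align once, while the counting of the cilengitide table is not given in the sources used here. Atp5l had a mean of 0.48 CPM in the first table and 21.6 CPM in the cilengitide table, Atp5g2 had 0.40 and 8.70 CPM, and Cox7c had 0.83 and 7.84 CPM. Over genes without a repeated window, the ratio of the cilengitide table to the first table had a median of 0.80, over genes with up to 20% repeated 0.91, with above 20% and up to 50% repeated 1.47, and with above 50% repeated 1.57. The tables were normalized separately, so these ratios describe the tables and not a treatment. Counts of Atp5l, Atp5g1, Atp5g2, Cox7c, Cox5b, Uqcrb, Atp5h and Cox7a2l are uncertain in level. So are those of Ndufb4, Atp5f1 and Atp5o (41.3%, 23.9% and 20.5% of windows repeated). Of these genes Ndufb4, Atp5f1, Atp5o, Atp5h and Cox7a2l are among those called below. Within each table they were compared as deposited.

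Per length of transcript, the subunits of complexes IV and V were the most abundant over the 23 libraries of the first table. Levels are in RPKM (reads scaled to the length of the gene and the TMM-normalised total of the library). The median over genes was 155 RPKM for complex V, 139.9 for complex IV, 99.3 for complex III, 77.7 for complex I, 65.2 for complex II and 8.35 for the assembly factors. The order of genes began with Ndufa4 (median over libraries 440 RPKM, range 154.5 to 1373), Cox4i1 (381 RPKM, 208 to 594.5) and the epsilon subunit gene Atp5e (345 RPKM, 142 to 738), whose ranges overlapped. The catalytic beta subunit Atp5b of complex V was at 339 RPKM (244 to 583) and its alpha partner Atp5a1 at 225 RPKM (162 to 391.5). The 4 subunits of succinate dehydrogenase lay between 55.1 RPKM for the flavoprotein Sdha and 75.6 RPKM for the iron-sulfur protein Sdhb. The isoforms Cox6a2, Cox7a1, Cox8b and Cox4i2 stood at medians of 6.69, 7.02, 3.15 and 2.77 RPKM.

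Summed over members, the respiratory chain took 0.904% of the counts of WT wounds at day 14 (median of 7 libraries, range 0.817% to 1.23%) and 0.755% of those of Col5a1CKO wounds (0.643% to 1.001%). Col5a1CKO wounds with WT fibroblasts gave 0.631%, 0.738% and 1.06%. At day 19 the values were 0.546%, 0.790% and 1.04% in WT and 0.406%, 0.451% and 0.879% in Col5a1CKO wounds, so the groups overlapped in each of these comparisons. With vehicle, the 4 WT libraries lay between 0.802% and 1.12% and the 4 Col5a1CKO libraries between 0.534% and 0.646%, without overlap, and the 4 cilengitide libraries lay between 0.700% and 0.878%, above the Col5a1CKO vehicle libraries and overlapping the WT libraries. In bulk tissue, fewer cells of a type and less RNA per cell cannot be told apart.

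**Figure D1:**
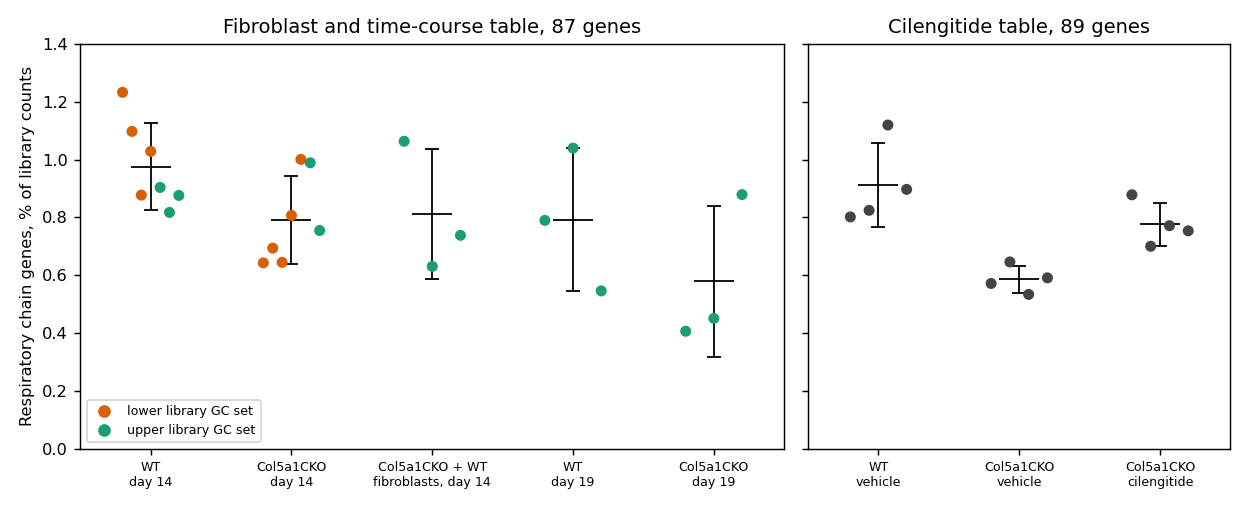
Share of each library's counts taken by the respiratory chain genes (percent, y axis) in the 8 groups (x axis), left for the fibroblast and time-course table and right for the cilengitide table. Points are libraries, bars are the mean and SD, and colours in the left panel give the library GC set. The Col5a1CKO vehicle libraries (0.534% to 0.646%) lie below all WT vehicle libraries (0.802% to 1.12%), while the day 14 groups overlap.

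The comparison of genotypes at day 14 asked how the wound transcriptome differs once Col5a1 is deleted in fibroblasts. Of the 87 members, 8 were lower and 0 higher in Col5a1CKO wounds at an adjusted p under 0.05 (edgeR quasi-likelihood, Benjamini-Hochberg adjustment over 14367 genes), against 4.34% of all genes lower and 6.45% higher. At an unadjusted p under 0.05 there were 29 lower and 0 higher, and DESeq2 called 15 lower and 0 higher (9.54% and 10.6% of all genes). The median log2 fold change was -0.43 over members and -0.03 over all genes, and 78 of 87 members were below 0. By complex the medians were -0.36 for complex I (4 of 36 called), 0.08 for complex II (0 of 4), -0.57 for complex III (1 of 8), -0.48 for complex IV (2 of 17), -0.59 for complex V (1 of 13) and -0.30 for the assembly factors (0 of 8).

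Ndufa4, a subunit of complex IV, was at 290.9, 427.5 and 675.4 CPM in WT wounds (lowest, median and highest of 7) and at 132, 216.3 and 339.3 CPM in Col5a1CKO wounds. The groups overlapped in part, and Ndufa4 fell by 1.08 (log2 scale, standard error 0.25, adjusted p = 0.0165). Atp5o, the oligomycin sensitivity subunit in the stalk of ATP synthase, was at 142.5, 211 and 302.5 CPM in WT and 83.3, 110 and 142 CPM in Col5a1CKO wounds, without overlap (log2 fold change -0.90, standard error 0.21, adjusted p = 0.0167). Ndufs8, an iron-sulfur subunit of complex I, was at 77.9, 91.6 and 159.7 CPM in WT and 51.2, 58.1 and 70.6 CPM in Col5a1CKO wounds, also without overlap (log2 fold change -0.81, standard error 0.20, adjusted p = 0.0218).

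The other members called lower were the accessory subunits of complex I Ndufb5 (log2 fold change -0.89), Ndufa6 (-0.62) and Ndufb11 (-0.75), the core protein Uqcrc2 of complex III (-0.81) and the ubiquitous isoform Cox6b1 of complex IV (-0.93), with adjusted p-values from 0.0265 to 0.0488 and groups that overlapped in CPM. The following subunits, also named by rule, did not pass the test. Ndufs1, the largest iron-sulfur subunit of complex I, had a log2 fold change of -0.54 (adjusted p = 0.176), and Ndufv1 had -0.26. Uqcrc1 and the Rieske protein Uqcrfs1 of complex III had -0.53 and -0.46, Cox5a of complex IV -0.02, and Atp5a1 and Atp5b of complex V -0.22 and -0.37. The largest negative value was that of Ndufa4l2 (-1.71, standard error 1.01, adjusted p = 0.29) and the largest positive one that of Cox8b (2.34, standard error 1.57, adjusted p = 0.352), and neither was called.

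Markers of other cell types moved with this comparison. Keratinocyte markers summed to between 30520 and 151800 CPM in WT wounds, while in Col5a1CKO wounds their sum lay between 31.7 and 56680 CPM. Of the 6 keratinocyte markers 0 were called and 6 were below 0, with none at 0 CPM in any library for Krt5 and Krt14. The sum of leukocyte markers ranged from 356 to 2932 CPM in WT libraries and from 1404 to 5451 CPM in Col5a1CKO libraries, and 4 of 6 (Cd68, Csf3r, Itgam and Ptprc) were called higher. Endothelial markers were called higher for 3 of 4 and fibroblast markers for 1 of 6 (Pdgfra). Muscle markers reached from 21.3 up to 11650 CPM in WT libraries and from 68.95 up to 20850 CPM in Col5a1CKO libraries, with 0 of 10 called. Ucp1, the defining gene of brown fat, was at 0 in 5 of 7 libraries of each group and at most 0.168 CPM. The part of these cell types in the result was not tested. Without the 4 libraries above 5000 CPM of muscle markers (WT a and Col5a1CKO a, e and f), 0 members were called, the median was -0.53, and 4 of 14800 genes were called (0.027% higher and 0% lower).

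**Figure D2:**
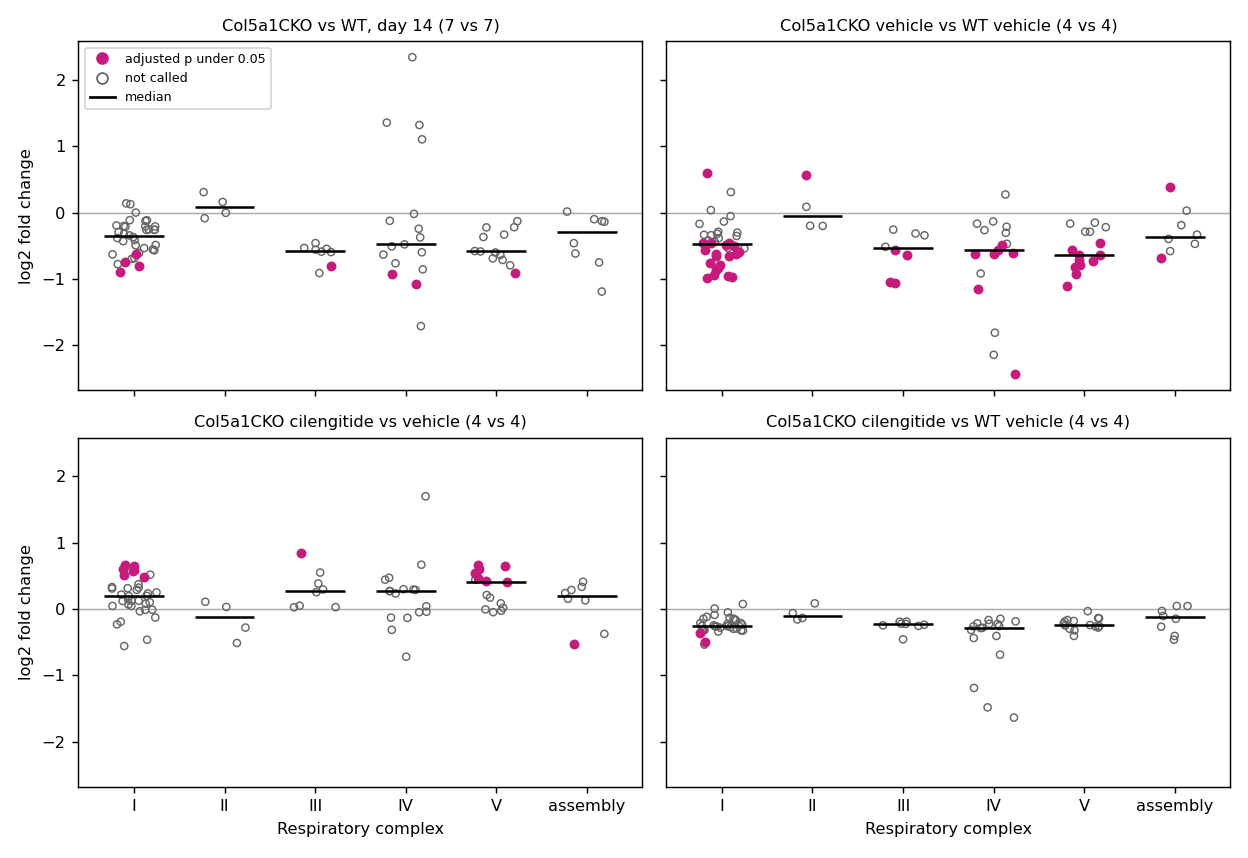
Log2 fold change (y axis) of each respiratory chain gene by complex (x axis) in 4 comparisons, named with their numbers of libraries above each panel. Filled points have an adjusted p under 0.05, open points do not, and black lines are medians. At day 14, 8 genes are filled, all below 0. With vehicle, 41 are filled below 0 and 3 above it, and with cilengitide against vehicle, 15 are filled above 0 and 1 below it, and the median of complex II lies between -0.12 and 0.08 in each panel.

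Libraries of the first table fell into a pair of sets by GC content. The log2 difference between GC-rich and GC-poor genes left a gap of 1.541 between sets, with a next widest gap of 0.395. The lower set held WT day 14 libraries a to d and Col5a1CKO day 14 libraries a to e, and the upper set held the other 3 WT and 2 Col5a1CKO libraries of day 14, all fibroblast-treated and all day 19 libraries. Inside WT wounds at day 14, upper against lower set, 11 members were higher and 30 lower of 86 tested, against 19.6% of all genes higher and 20.6% lower. Inside Col5a1CKO wounds 9 of 87 were higher and 4 lower, against 4.59% and 6.46% of all genes. Members with the lowest GC content (a group of 28 of the 86) had a median log2 fold change of -1.01 between sets in WT and those with the highest GC content (29 genes) 0.22, with -0.46 and 0.68 in Col5a1CKO wounds. Spearman's rho of GC content and log2 fold change was 0.472 over 86 members in WT and 0.644 over 87 in Col5a1CKO wounds. These are correlations across genes that share the same libraries. The sets were themselves split by GC content in these counts, so a rise with GC content follows from the split and is not separate evidence for it.

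Individual subunits changed severalfold between the sets. Cox6a1 was at 67.3 to 86.5 CPM in the 4 lower set WT libraries and at 223 to 259.2 CPM in the 3 upper set ones (log2 fold change 1.55, standard error 0.15, adjusted p = 0.00014). Cox7a2 went the other way, from 321.9 to 413.1 CPM in the lower set to 112.2 to 142.5 CPM in the upper set (log2 fold change -1.70, standard error 0.16, adjusted p = 0.000143). Atp5d, the delta subunit of ATP synthase, was at 66.7 to 122 CPM in the lower and 344.6 to 357 CPM in the upper set of WT wounds (log2 fold change 1.78, adjusted p = 0.000303). Keratinocyte markers moved with the sets in WT wounds too, from 30520 to 33980 CPM in the lower set to 99220 to 151800 CPM in the upper set, and fibroblast markers from 50090 to 84650 CPM down to 8480 to 9548 CPM. Library set and these marker levels cannot be told apart inside WT wounds.

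Within the lower set alone (4 WT and 5 Col5a1CKO libraries), 27 members were lower in Col5a1CKO wounds and 0 higher, against 5.14% of all genes lower and 4.78% higher, and the median was -0.54. Within the upper set alone (3 and 2 libraries), 0 members were called in either direction, at a background of 0.751% of all genes lower and 9.21% higher. The median was -0.09, with 9 lower and 3 higher at an unadjusted p under 0.05. Xist was above 50 CPM in these Col5a1CKO libraries and in the fibroblast-treated libraries, and not in these WT libraries. Within the upper set of day 14, sex and the difference from WT thus cannot be told apart. With the set as a covariate over all 14 libraries, 28 members were lower and 0 higher, at a background of 10.8% lower and 13.1% higher. Cox7a2, Cox6b1 and Ndufb5 had the smallest adjusted p-values within the lower set, with log2 fold changes of -1.13, -1.28 and -1.22. The 8 members called over all libraries were all called within the lower set. Of those not called, Cox5a, Atp5a1 and Ndufv1 had values above 0 there (0.15, 0.06 and 0.03). Members with the lowest, middle and highest GC content had medians of -0.49, -0.37 and -0.26 in the comparison of genotypes, and rho was 0.145 over the 87 members.

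**Figure D3:**
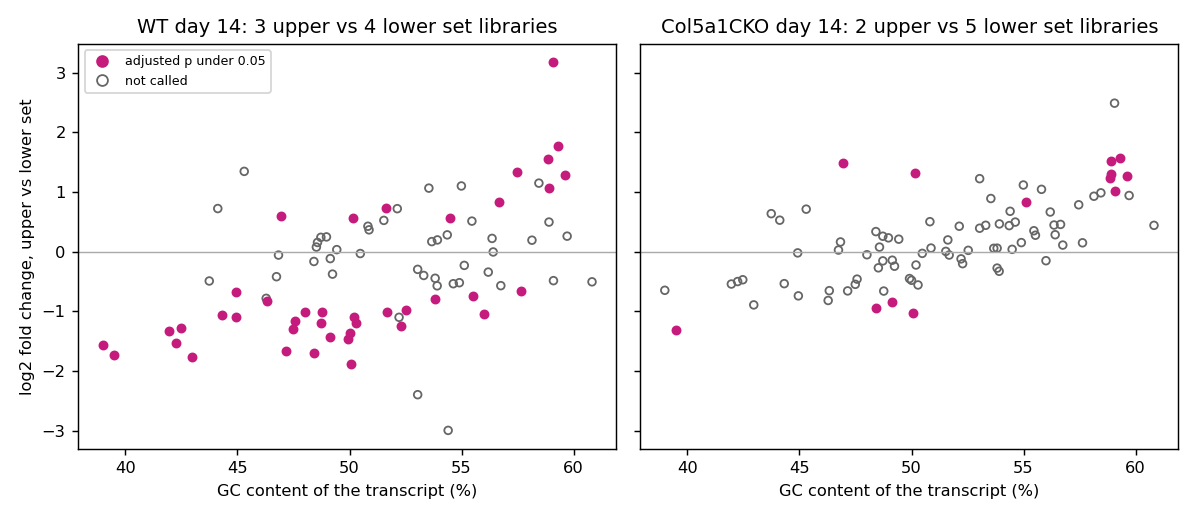
Log2 fold change of each respiratory chain gene between the upper and lower library sets (y axis) against the GC content of its transcript in percent (x axis), for WT (left) and Col5a1CKO wounds (right) at day 14. Filled points have an adjusted p under 0.05. Points rise from left to right in both panels (rho 0.472 and 0.644), which follows from the split of the libraries by GC content. The calls are 11 above and 30 below 0 in WT and 9 above and 4 below 0 in Col5a1CKO wounds.

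At day 19, 0 of 87 members passed the test between Col5a1CKO and WT wounds, 3 against 3, at a background of 0.0198% of all genes higher and 0% lower. At an unadjusted p under 0.05, 7 members were lower and 0 higher, and DESeq2 called 3 lower and 0 higher, fewer than its shares of all genes would give (7.5% lower and 8.19% higher). The median was -0.20 over members, with 65 below 0. The 4 succinate dehydrogenase genes had log2 fold changes from 0.17 to 0.49, with Sdha at 137.2, 147.7 and 342.8 CPM in Col5a1CKO and 146.6, 157.6 and 160.7 CPM in WT wounds. The high value is that of Col5a1CKO library c, which also had the highest muscle marker sum of the table (43250 CPM). Without it the median over members was -0.54, and without Col5a1CKO library a it was -0.01. The term for a genotype difference that changes between days 14 and 19 was called for 0 members in each direction, at a background of 0% of 15954 genes, with 2 higher and 0 lower at an unadjusted p under 0.05.

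Between days 14 and 19, 4 members fell in WT wounds, at a background of 1.52% of all genes higher and 4.34% lower, and 12 fell in Col5a1CKO wounds, at 2.71% higher and 5.12% lower. None rose in either comparison. DESeq2 called 21 lower and 0 higher in each, with 10.3% of all genes lower and 4.64% higher in WT and 10.9% and 5.49% in Col5a1CKO wounds, and at an unadjusted p under 0.05 there were 40 and 34 lower and 0 higher. Medians over members were -0.65 in WT and -0.51 in Col5a1CKO wounds. All day 19 libraries belonged to the upper set and most day 14 libraries to the lower, and rho of GC content and log2 fold change was 0.55 over members in WT and 0.495 in Col5a1CKO wounds. Cell type markers moved as well. In WT wounds all 6 keratinocyte markers were below 0 at day 19 (median -1.81), of which Dsg3 was called, and the endothelial marker Cdh5 was called higher (1.69). In Col5a1CKO wounds 5 of 6 keratinocyte and 6 of 6 leukocyte markers were below 0 without a call, and Cdh5 was called higher (1.07). The fibroblast marker Col1a1 was also called higher (1.59), while 3 of the 6 fibroblast markers were below 0 (median 0.22). Their part in the result was not tested.

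In WT wounds Ndufa4 was at 110.4, 139.8 and 88.96 CPM at day 19, below the lowest day 14 library (290.9 CPM), and fell by 2.06 (log2 scale, standard error 0.37, adjusted p = 0.00979). The stalk subunit Atp5f1 (-2.02, standard error 0.50, adjusted p = 0.0374), Cox7b of complex IV (-1.93, adjusted p = 0.0444) and Ndufb8 of complex I (-1.07, adjusted p = 0.046) did not overlap between days either. Ndufb8 rose with GC set in WT wounds (145.5, 149.2, 138.7 and 161.4 CPM in the lower and 211.6, 253.7 and 255.5 CPM in the upper set) and was at 66.2, 83.9 and 110.9 CPM at day 19. Within the upper set alone, 21 members were lower and 2 higher at day 19 in WT wounds, 3 against 3, where 18.4% of all genes were lower and 17.5% higher. The 4 genes named here were among these calls. Without WT library a, b or c of day 19, 0, 1 and 0 members were called.

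In Col5a1CKO wounds the 12 genes included Uqcrh, the hinge protein of complex III, Ndufaf2, an assembly factor of complex I, and Ndufb4 and Ndufc2 of complex I. The others were Cox6b1, Cox6c, Cox7a2, Cox7a2l and Cox7b, counted with complex IV, and Atp5f1, Atp5h and Atp5j2 of complex V. Uqcrh was at 149.8, 206.5 and 273.5 CPM at day 14 (lowest, median and highest of 7) and at 47.4, 52.9 and 78.8 CPM at day 19 (log2 fold change -1.77, standard error 0.28, adjusted p = 0.012). Cox7a2 went from 87.4, 166 and 194 CPM to 40.5, 42.6 and 63.0 CPM (-1.62, standard error 0.31, adjusted p = 0.0183), and Ndufaf2 from 9.65, 13.4 and 18.4 CPM to 4.95, 6.04 and 4.87 CPM (-1.41, standard error 0.26, adjusted p = 0.0153). The groups did not overlap for these 3 genes. Ndufb4 had the largest negative value (-1.91), and 41.3% of its 50-base windows are repeated in the genome. Within the upper set alone, 2 against 3 libraries, 0 members and 0% of all genes were called, and 22 members were lower at an unadjusted p under 0.05. Leaving out any of the 3 day 19 libraries, a, b or c, also gave 0 calls, and without library c the median was -0.96.

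Of the 87 members, 0 passed the test in fibroblast-treated Col5a1CKO wounds of day 14 against those without fibroblasts (0% of all genes in each direction) and 0 against WT wounds (3.89% of all genes higher, 2.19% lower). At an unadjusted p under 0.05, 12 were lower and 0 higher in the first comparison and 20 lower and 0 higher in the second, and DESeq2 called 0 and 12 lower and 0 higher in both (0.0255% of all genes lower and 0% higher in the first, 9.7% and 5.99% in the second). The medians were -0.01 and -0.25. All fibroblast-treated libraries belonged to the upper set, and most Col5a1CKO and WT libraries of day 14 to the lower. With the library set as a covariate the medians were -0.13 and -0.19, with 79 and 67 of 87 members below 0. Against WT, 4 of 6 leukocyte and 2 of 4 endothelial markers were called higher, and 0 of 6 and 0 of 4 against Col5a1CKO. The part of these cell types in the result was not tested. Fibroblast-treated library a held 31060 CPM of muscle markers against 347 and 407 CPM in libraries b and c, and without it the medians were -0.37 and -0.66. Ndufa4 was at 313.4, 156 and 169.2 CPM in these libraries, all inside the Col5a1CKO range at day 14, and library a also inside the WT range.

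The vehicle groups of the cilengitide experiment gave the comparison of genotypes in a separate set of libraries. Of 89 members, 41 were lower and 3 higher in Col5a1CKO wounds, against 24.5% of all genes lower and 23.8% higher. DESeq2 called 45 lower and 3 higher (26.7% and 29.5% of all genes). The median was -0.47 over members and 0.02 over all 15434 genes tested, and 81 members were below 0. Calls lower made up 19 of 36 genes of complex I (median -0.48), 0 of 4 of complex II (-0.06), 4 of 8 of complex III (-0.54), 7 of 17 of complex IV (-0.56), 10 of 15 of complex V (-0.64) and 1 of 8 assembly factors (-0.37). Leaving out any 1 library left between 29 calls lower (without WT library 3) and 43, and the 3 calls higher were 0 without WT library 1, 2 or 4 or Col5a1CKO library 3, and 1 without Col5a1CKO library 4.

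Ndufa10, an accessory subunit of complex I, was at 91.1, 93.5, 108 and 105 CPM in WT and at 56.1, 51.5, 48.3 and 51.3 CPM in Col5a1CKO vehicle wounds. The groups lay far apart relative to their spread, and Ndufa10 had the smallest adjusted p among members (log2 fold change -0.98, standard error 0.11, adjusted p = 0.000819). Uqcrc1, a core protein of complex III, was at 234.5, 206, 279.5 and 225 CPM against 118, 113, 105 and 129 CPM (-1.06, standard error 0.14, adjusted p = 0.0013). Ndufa9 of complex I was at 92.1, 80.0, 111 and 93.1 CPM against 55.3, 47.6, 45.0 and 52.6 CPM (-0.95, standard error 0.13, adjusted p = 0.00148). None of these 3 genes overlapped between genotypes.

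Subunits of complexes I, III, IV and V named by rule were called lower in this experiment. In complex I, Ndufv1, which binds NADH, fell by 0.79 (log2 scale, adjusted p = 0.00273) and the iron-sulfur subunit Ndufs1 fell by 0.46 (adjusted p = 0.0152). In complex III, Uqcrfs1 fell by 0.64 (adjusted p = 0.0181). In complex IV, Cox5a fell by 0.56 (adjusted p = 0.026). The catalytic subunits of ATP synthase fell as well, Atp5b by 0.82 (adjusted p = 0.00936), from 785.5, 786, 952 and 864 CPM to 513, 478.5, 432 and 550.1 CPM, and Atp5a1 by 0.79 (adjusted p = 0.00951). In the stalk, Atp5d had the largest negative value of complex V (-1.11, standard error 0.17, adjusted p = 0.0021) and Atp5o had -0.93 (standard error 0.15, adjusted p = 0.00234).

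In complex II, 1 of 4 genes passed the test, and it was higher. Sdha was at 157, 146, 159 and 154 CPM in WT and 163, 144, 119.5 and 125 CPM in Col5a1CKO vehicle wounds (log2 fold change -0.20, adjusted p = 0.255). Sdhb (0.09) and Sdhc (-0.20) were not called, and Sdhd, the membrane anchor, rose by 0.56 (standard error 0.20, adjusted p = 0.0493), from 59.2, 55.5, 69.8 and 45.1 CPM to 70.45, 68.9, 100.3 and 110 CPM with overlap. The other members called higher were Sdhaf2, which helps attach the flavin to Sdha (0.38, standard error 0.12, adjusted p = 0.0312, no overlap), and Ndufa2 of complex I (0.60, standard error 0.20, adjusted p = 0.0396, with overlap). The difference between complex II and the other complexes was not tested as such.

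Over the 86 members tested in both experiments, 8 were called lower at day 14 and 40 with vehicle. The 7 genes called in both were Atp5o, Cox6b1, Ndufa4, Ndufb11, Ndufb5, Ndufs8 and Uqcrc2, which is 87.5% of the first list and 17.5% of the second. Below 0 in both were 72 members (83.7%), against 40.46% of all 14311 genes tested in both. The experiments share no library, and the tables were normalized separately.

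Cilengitide blocks the alpha v beta 3 integrin, and its comparison with vehicle in Col5a1CKO wounds asked how inhibition of integrin signaling changes the wound. With cilengitide, 15 of 89 members were higher and 1 lower than with vehicle, against 12.7% of all genes higher and 12.2% lower. DESeq2 called 24 higher and 3 lower (17.1% and 18.8% of all genes). The median was 0.21 over members and -0.06 over all genes. Calls higher comprised 7 of 36 genes of complex I (median 0.20), 1 of 8 of complex III (0.28), 7 of 15 of complex V (0.41) and none of complex II (-0.12) or complex IV (0.27). The 1 call lower was Ndufaf3, an assembly factor of complex I (-0.52, standard error 0.15, adjusted p = 0.0389), at 7.05, 9.34, 9.01 and 8.68 CPM with vehicle and 6.71, 5.56, 6.04 and 5.19 CPM with cilengitide. This call was kept only without vehicle library 1 among the 8 fits that left out a library. The count of 15 was 4 without vehicle library 3, 8 and 9 without cilengitide libraries 3 and 1, and 28 without vehicle library 4.

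Uqcrc1 was at 234, 202, 210.5 and 182.5 CPM with cilengitide, above all 4 Col5a1CKO vehicle libraries (105 to 129 CPM), and had the smallest adjusted p among members (log2 fold change 0.84, standard error 0.13, adjusted p = 0.00676). Ndufa9 was at 84.3, 79.2, 80.0 and 71.8 CPM with cilengitide (0.66, standard error 0.11, adjusted p = 0.00823) and Ndufa10 at 86.5, 72.4, 77.6 and 74.1 CPM (0.59, standard error 0.10, adjusted p = 0.00954), both above their vehicle libraries. In complex V, Atp5o (0.66, adjusted p = 0.0135), Atp5d (0.67, adjusted p = 0.0254), Atp5b (0.60, adjusted p = 0.0308) and Atp5a1 (0.54, adjusted p = 0.035) rose, with Atp5b at 792, 726, 755 and 704 CPM. Ndufv1 rose by 0.52 (adjusted p = 0.0221). Ndufa4 was at 255.5, 149, 211 and 201.0 CPM with cilengitide, which overlapped the vehicle libraries (87.9 to 202 CPM), and its log2 fold change of 0.67 was not called (adjusted p = 0.119).

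Against WT wounds with vehicle, 2 members were lower and 0 higher in cilengitide-treated Col5a1CKO wounds, at a background of 11% of all genes lower and 9.53% higher. DESeq2 called 5 lower and 0 higher (16.6% and 17.5% of all genes), and at an unadjusted p under 0.05 there were 16 lower and 0 higher. Ndufa10 fell by 0.36 (standard error 0.10, adjusted p = 0.0406) and Ndufa6, an accessory subunit of complex I, fell by 0.50 (standard error 0.15, adjusted p = 0.0481) on the log2 scale, both without overlap. The median over members was -0.25, with 84 of 89 below 0, and -0.01 over all genes. Without WT vehicle library 3, which was highest for many members, the median was -0.11 and 0 were called. The calls were also 0 without WT vehicle library 4 or any of cilengitide libraries 2, 3 and 4, and 4 without cilengitide library 1. The comparisons with cilengitide share the Col5a1CKO or the WT vehicle libraries with the comparison of genotypes.

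Cell type markers moved with both vehicle and cilengitide comparisons. Keratinocyte markers summed to 58610 to 95140 CPM in WT vehicle, 60.0 to 11490 CPM in Col5a1CKO vehicle and 31810 to 65630 CPM in cilengitide libraries. Between genotypes 3 of 6 (Krt1, Krt10 and Krt5) were lower, and with cilengitide 2 of 6 (Krt1 and Krt10) were higher. Leukocyte markers summed to 253 to 834 CPM, 3263 to 6723 CPM and 1059 to 1918 CPM in the same order, with 5 of 6 higher and 1 lower between genotypes and 4 of 6 lower with cilengitide. Between genotypes the fibroblast markers Dcn and Pdgfra (2.62 and 2.99) and the endothelial markers Emcn and Pecam1 (2.22 and 1.95) were higher, and with cilengitide 0 of 6 and 0 of 4 were called. Fibroblast markers summed to 9900 to 55440 CPM in WT vehicle, 24060 to 115300 CPM in Col5a1CKO vehicle and 39510 to 77740 CPM in cilengitide libraries. Of 3 adipocyte markers tested between genotypes, 2 were below 0 (median -0.14), and only Cidea was called, lower (-4.57). With cilengitide 0 of 3 were below 0 (median 1.56), and only Cidea was called, higher (4.46). Sums of the 7 adipocyte markers overlapped. They lay at 72.3 to 161 CPM in WT vehicle, 80.6 to 144 CPM in Col5a1CKO vehicle and 75.4 to 173 CPM with cilengitide. All 10 muscle markers were below 0 between genotypes (median -2.25), and 0 were called, with sums of 42.1 to 4278 CPM, 11.1 to 1681 CPM and 72.0 to 865 CPM in the same order of groups. Across the 12 libraries, the median Spearman's rho of a member with the keratinocyte sum was 0.713, with the leukocyte sum -0.615 and with the fibroblast sum -0.59. In the first table the corresponding medians over 23 libraries were 0.347, -0.149 and -0.40. These correlations describe libraries that also differ in group, and the part of cell composition in the results was not tested.

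The library GC measure also differed between the vehicle groups, though within a narrow range. It was -0.027 to 0.127 in WT vehicle, -0.548 to -0.204 in Col5a1CKO vehicle and -0.174 to 0.124 in cilengitide libraries. The difference was -0.39 between the vehicle groups and 0.30 between cilengitide and vehicle (2-sided exact permutation test, p = 0.0286 each, the smallest that 4 against 4 libraries allow, 0.0429 after Benjamini-Hochberg adjustment over 3 comparisons), and -0.0887 between cilengitide and WT vehicle (p = 0.286). Over members, rho of GC content and log2 fold change was -0.149 between genotypes and 0.12 with cilengitide. Calls lower between genotypes fell on 11 of 29 members with the lowest, 17 of 30 with middle and 13 of 30 with the highest GC content.

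**Figure D4:**
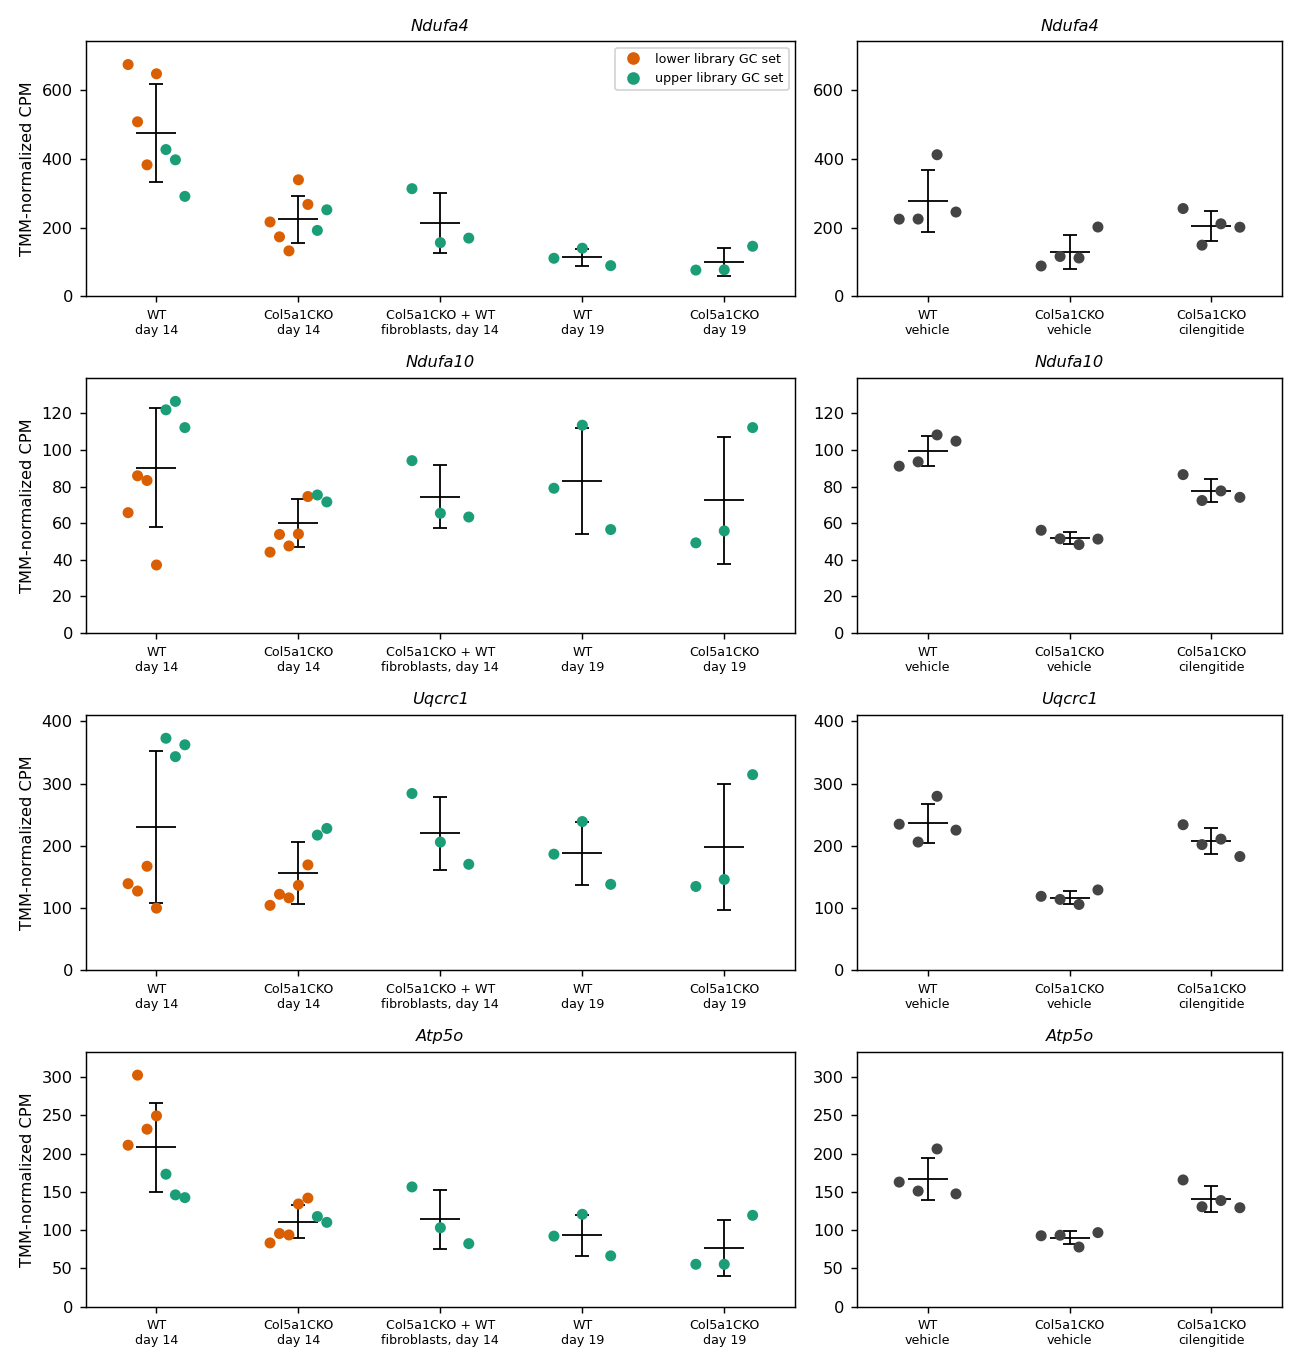
TMM-normalized CPM (y axis) of Ndufa4, Ndufa10, Uqcrc1 and Atp5o (rows of panels) in each library, by group (x axis), left for the fibroblast and time-course table and right for the cilengitide table. Points are libraries, bars are the mean and SD, and colours in the left panels give the library GC set. In the right panels all 4 Col5a1CKO vehicle libraries lie below all WT vehicle libraries, while Uqcrc1 at day 14 splits by library set, between 99.4 and 167 CPM in the 4 lower set WT libraries and between 343 and 373 CPM in the 3 upper set ones.

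The muscle isoforms of complex IV moved with muscle markers. Across the 23 libraries of the first table, Spearman's rho with the summed muscle markers was 0.944 for Cox6a2, 0.847 for Cox7a1 and 0.938 for Cox8b, and in the 12 cilengitide libraries 0.944, 0.49 and 0.974. Cox6a2 was at 51.1 CPM in WT day 14 library a (muscle markers 11650 CPM) and at most 7.99 CPM in the other 6 WT libraries. It was at 189 CPM in Col5a1CKO day 19 library c and at 118 CPM in fibroblast-treated library a, the libraries with the most muscle marker counts. Cox6a2, Cox7a1 and Cox8b passed the test in none of the 9 comparisons of groups. Their ubiquitous counterparts Cox6a1, Cox7a2 and Cox8a were present in all libraries. Per length, Cox4i2 stayed at or below 8.39 RPKM in the first table, where Cox4i1 was at or above 208 RPKM. Cox6b2 stayed at or below 5.75 CPM in all 35 libraries.

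Ndufa4l2 moved with keratinocyte markers, with rho of 0.715 over 23 libraries and 0.916 over 12. Over the 23 libraries, Ndufa4l2 also had rho of -0.685 with fibroblast and -0.619 with leukocyte markers. With vehicle it was at 264, 193, 259 and 173 CPM in WT and at 22.8, 9.84, 12.6 and 125 CPM in Col5a1CKO wounds, without overlap, and it fell by 2.44 (log2 scale, standard error 0.82, adjusted p = 0.0403). The Col5a1CKO library at 125 CPM is the one with 11490 CPM of keratinocyte markers. Cilengitide libraries held 138, 214, 105.5 and 94.6 CPM (log2 fold change 1.70, standard error 0.83, adjusted p = 0.164). At day 14 WT wounds lay between 7.61 and 433 CPM, Col5a1CKO wounds between 3.002 and 221 CPM, and both groups held libraries under 10 CPM. The WT libraries of day 14 held 7.61 to 50.25 CPM in the lower set and 221.4 to 433 CPM in the upper set. Set and marker levels of these WT libraries cannot be told apart. Ndufa4, its paralog, varied less, between 76 and 675 CPM over the 23 libraries.

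**Figure D5:**
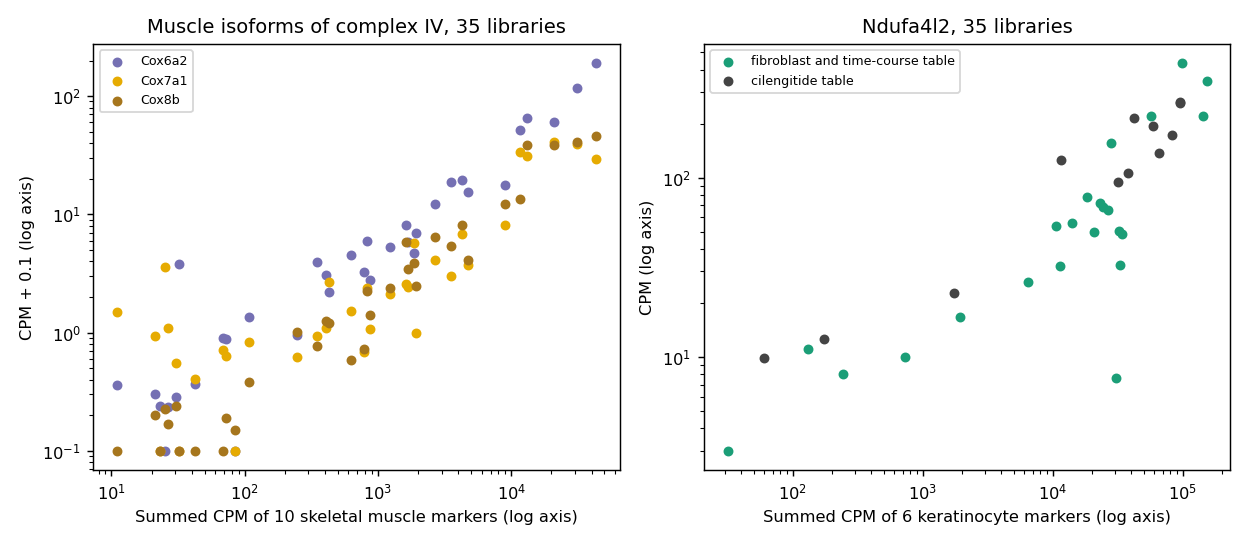
Left, CPM plus 0.1 of Cox6a2, Cox7a1 and Cox8b (log y axis) against the summed CPM of 10 skeletal muscle markers (log x axis) in 35 libraries. Right, CPM of Ndufa4l2 (log y axis) against the summed CPM of 6 keratinocyte markers (log x axis), coloured by table. The muscle isoforms rise with muscle markers (rho 0.944, 0.847 and 0.938 in the first table) and Ndufa4l2 with keratinocyte markers (0.715 and 0.916).

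Other mitochondrial genes were described from lists drawn up with earlier results of these data known. Of 23 assembly factors outside the symbol rule, 1 was lower at day 14 (Acad9, -2.04, adjusted p = 0.0104), and with vehicle 6 were lower and 5 higher, among them Acad9 (-2.94), the complex I factor Ecsit (-1.11) and the copper chaperone Cox17 (1.68). These shares were close to those of all genes (4.34% lower at day 14, and 24.5% lower and 23.8% higher with vehicle). With cilengitide 5 were higher, Acad9 among them (2.20), and 5 lower, where 12.7% and 12.2% of all genes were. Of 5 electron carriers, Etfa was lower at day 14 (-0.84, adjusted p = 0.0311). With vehicle Cyc1, a cytochrome of complex III, Etfa and Etfdh were lower (-0.84, -0.90 and -0.38). Cytochrome c itself, Cycs, had log2 fold changes of 0.24 at day 14 and 0.03 with vehicle and was not called.

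The counts in the next lists stand beside shares of all genes of 4.34% lower and 6.45% higher at day 14. With vehicle these shares were 24.5% lower and 23.8% higher, and with cilengitide 12.2% lower and 12.7% higher. Differences between the lists and these shares were not tested. In the citric acid cycle, 0 of 17 genes were called at day 14 and 8 were lower with vehicle, led by citrate synthase, Cs (-1.31, standard error 0.16, adjusted p = 0.00103). With cilengitide 4 were higher (Cs, Idh3a, Ogdh and Suclg1). Of 12 genes of mitochondrial biogenesis, Tfb1m was lower at day 14, and 7 were lower with vehicle, among them the coactivators Ppargc1b (-2.62) and Ppargc1a (-1.46), the mitochondrial RNA polymerase Polrmt (-1.25) and Tfam (-0.39), while Nrf1 had 0.01. The mitochondrial ribosome, which translates the mitochondrially encoded subunits, had 9 of 75 genes lower at day 14 (median -0.42), 36 of 76 lower and 1 higher with vehicle (-0.34), and 14 of 76 higher with cilengitide (0.17). The cytoplasmic ribosome had 40 of 92 lower and 1 higher at day 14 (median -0.93), 70 of 93 lower and 4 higher with vehicle (-0.86), and 35 higher and 3 lower with cilengitide (0.46). Its list was taken by symbol prefix, and the genes against the direction were Rps6ka2 and Rps6ka5, which encode kinases and not ribosomal proteins, Rpl39l and Rps4y2. The shift toward lower values was thus larger in its median for the cytoplasmic ribosome than for the respiratory chain (-0.43 and -0.47) in both comparisons of genotypes, and this difference was not tested.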

How the data were processed

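RNA was isolated from the middle of wounds and sequenced as stranded single-end libraries of 50 bases. According to the methods of the study, the authors aligned reads of the fibroblast and time-course libraries with HISAT2 to NCBI37/mm9, kept reads that aligned once and counted them over exons in SeqMonk. Both tables hold raw counts per gene as deposited, and a deposited length in bp was used from the fibroblast and time-course table only. Whether these methods cover the cilengitide table is not stated. The row with the largest total was kept per symbol, and rows naming no gene (at most 0.0694% of counts) were dropped. Counts were normalised by TMM and tested with edgeR 4.0.16 (R 4.3.3, quasi-likelihood, robust, minimum count 10), with a Benjamini-Hochberg adjusted p under 0.05 as the threshold. Each comparison was fitted on its own groups over all genes. CPM in the text is TMM-normalised, and shares of counts use raw counts. DESeq2 1.42.0, other size factors, no count filter, a 2-fold threshold, a GC offset, the library set, the replicate block, summed rows and leaving out libraries were alternatives, and leaving out muscle-rich libraries was chosen after seeing the data. The test was tried on simulated data. The members, lists and rules were chosen with earlier results of these data known. Named genes were core subunits, isoform pairs, Col5a1, up to 3 called members in each direction per comparison, taken by adjusted p among those whose groups did not overlap, and the largest value in each direction, and other genes were named after their values were seen. The single values of 1 gene are not reported here. Groups followed the sample titles, and for the day 19 wounds another label field assigned the fibroblasts differently. Nothing in the labels says that replicates are separate animals in each case, and p-values measure the spread between these samples. The 69 pairs of replicates all differed by more than counting noise (chi-square per degree of freedom 31.25 or more). Depth was 15043531 to 68266760 counts per library, and correlations are descriptions over the libraries or genes stated. Fold changes of genes with few counts depend on the prior count.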

Additional observations from a re-analysis of the deposited data

Results flagged for a closer look

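Of 212 sets of values, each from a group of 4 or 7 libraries, 24 held a library far from the others. Chance gives about 1 in 20 for independent sets. These sets share libraries and the sums contain the genes, so no excess over chance can be read from the count. WT vehicle library 3 was the high one in 14 of the 24, each value being followed here by that of the nearest other WT vehicle library. It held 412.4 CPM of Ndufa4 (245.3), 358.1 of Cox4i1 (257.1), 278.8 of Cox6b1 (195.8), 224.3 of Cox6a1 (169.3), 137.8 of Cox5a (103.7) and 191.0 of Cox7b (135.3) in complex IV. In complex I it held 73.73 CPM of Ndufa6 (52.89) and 47.74 of Ndufa2 (37.13), in complex III 237.2 of Uqcrh (165.3), and in complex V 243.1 of Atp5f1 (180.8) and 168.4 of Atp5j2 (114.2). Its sums were 1171 CPM for complex III (880.7), 2641 for complex IV (1927) and 10860 for all members (8365).

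WT day 14 library a, which had the most muscle marker counts of its group, was high for Cox6a2 (51.09 CPM, nearest 7.988), Cox7a1 (33.74, nearest 3.514) and Ndufb4 (25.13, nearest 12.17). Ndufa4l2 was high in Col5a1CKO day 14 library g (220.6 CPM, nearest 65.94) and Col5a1CKO vehicle library 4 (125.3, nearest 22.76), the libraries with the most keratinocyte marker counts of their groups. Uqcrfs1 was low in WT day 14 library c (55.0 CPM, nearest 98.82). Cox8b was high in Col5a1CKO vehicle library 1 (3.317 CPM, nearest 0.2795) and Atp5s in Col5a1CKO vehicle library 2 (4.165, nearest 2.924). In cilengitide libraries 1 and 3, Ndufa6 (45.9 CPM, nearest 39.12) and Ndufs1 (96.5, nearest 86.5) were high.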

How the results depend on the processing

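Of 3986 values of named genes under the alternatives run, 3727 kept their side of the threshold, 106 passed it and 153 lost it. The sign changed in 340, and in 0 of these was the gene called in either fit. For the genotype comparison at day 14, the 8 members called lower were 15 by DESeq2, 15 with a GC offset, 28 with the library set as a covariate, 27 in the lower set, 0 in the upper set (median -0.0913), 1 at a 2-fold threshold, and 0 without muscle-rich libraries. DESeq2 called 3 lower at day 19 and 12 lower for fibroblasts against WT, where the covariate gave 1 and the upper set 5 (22% of all genes lower). For WT across days, 21 were lower by DESeq2, 2 with median-of-ratios factors, 13 with the covariate, 21 lower and 2 higher in the upper set (18.4% and 17.5% of all genes) and 0 without muscle-rich libraries. For Col5a1CKO across days, 21 were lower by DESeq2, 5 with the covariate, and 0 in the upper set or without muscle-rich libraries. With vehicle, a 2-fold threshold left 5 lower and 0 higher, and the GC offset 1 higher. For cilengitide against vehicle, the 2-fold threshold left 0 and 0, DESeq2 gave 24 higher and 3 lower, median-of-ratios factors 2 lower and no count filter 0 lower. Against WT, lower calls were 0 at 2-fold, 5 by DESeq2 and 1 without a filter.

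Leaving out 1 library gave medians of -0.365 to 0.128 for fibroblasts against Col5a1CKO, -0.665 to -0.114 against WT, -0.542 to -0.0142 at day 19 and -0.959 to -0.311 for Col5a1CKO across days. Calls lower were 0 to 1 for WT and 0 to 0 for Col5a1CKO across days, 29 to 43 with vehicle (higher 0 to 3), 0 to 3 with cilengitide (higher 4 to 28) and 0 to 4 against WT.

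Replicate letters share no stated animal, litter or day. At day 14 the mean correlation of same-letter deviations was 0.161 (-0.005 within library sets), and 3 of 7 letters matched best with themselves. At day 19 it was -0.372. With the replicate block, the 8 calls at day 14 were 3 (5.26% of all genes lower). Fibroblasts against Col5a1CKO gave 6 higher and 4 lower with this block, below the shares of all genes (11% and 9.62%). Against WT it gave 2 higher and 28 lower (10.9% and 13.3%). Fibroblast-treated libraries a to c were all in the upper library set. WT and Col5a1CKO libraries a to c of day 14 were all in the lower set. Fibroblast treatment and library set therefore cannot be told apart with this block. Depth limits genes of few counts, such as Cox4i2 and Cox6b2.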
